A study of Homo sapiens with 6 samples.

Results

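The genes described here are 10 members of the extrinsic apoptosis pathway, in which a signal from outside the cell starts programmed cell death. They are the TRAIL receptors TNFRSF10A, TNFRSF10B and TNFRSF10D, the receptors FAS, TNFRSF1A and TNFRSF12A, the ligand TNFSF10, the adaptor FADD, the protease CASP8 and the inhibitor CFLAR. They were chosen by gene symbol among the 29982 symbols of the deposited expression table, and each was found once. All 10 had a mean expression of at least 1 FPKM (fragments scaled to transcript length and to the mapped reads of the library) over the libraries, as had 13287 genes in all. The question was how the messenger RNA of these genes stood after treatment with SpiD7, a compound used to activate the unfolded protein response.

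Death receptors sit in the plasma membrane, and once a ligand of the tumour necrosis factor family has bound, their intracellular death domains gather FADD. FADD recruits procaspase 8 through death effector domains, and the caspase activates itself in this complex unless CFLAR, a caspase 8 relative without protease activity, takes its place. During lasting stress of the endoplasmic reticulum, CHOP, the transcription factor encoded by DDIT3, is known to act on the TNFRSF10B gene, which links that stress to this pathway.

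RNA was measured in OVCAR5, an established ovarian cancer cell line, after vehicle (DMSO) in 2 libraries, after 10 μM SpiD7 for 2 h in 2 libraries, and after 10 μM SpiD7 for 6 h and for 12 h in 1 library each. SpiD7 is a spirocyclic dimer, all libraries come from the same unmodified line, and the labels give no duration for the vehicle and do not say whether the libraries came from separate cultures, so that p-values measure only the spread between these libraries. The deposited columns named for the second DMSO and second 2 h library hold values in which the first library of the group makes up a constant share, 0.526 for DMSO and 0.509 for 2 h. The second libraries, called recovered here, are what remained after that share was subtracted. The values alone support this reading, on which every value of a recovered library depends.

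The table holds no read counts, so that no counting error can be given. From the step that 1 read makes in the low values, the depth of the other 5 libraries was between 0.769 and 1.11 times that of the first DMSO library. All 7 epithelial markers examined reached 1 FPKM in every library, with summed levels of 3769 to 4216 FPKM in DMSO and 3214 to 4822 FPKM with SpiD7. Of the 3 ovarian serous markers PAX8 alone reached 1 FPKM, at 1.64 to 2.12 FPKM, and WT1 and MUC16 were below it in all 6 libraries. Of 3 gut markers CDX2 alone reached 1 FPKM, at 1.58 to 4.403 FPKM. CDX2 was above PAX8 in every library except the recovered 2 h library, where they were at 1.58 and 1.79 FPKM. With 1 of 3 markers reached in each list, these markers do not decide the labelled origin. Among markers of other cells, 3 of 5 leukocyte genes and 4 of 6 fibroblast genes were below 1 FPKM throughout. The others were CD68 at 22.7 to 37.3 FPKM, CD14 at 3.10 to 5.68 FPKM up to 6 h and 9.36 FPKM after 12 h, above both DMSO libraries (4.08 and 4.96 FPKM), LUM at 2.01 to 4.27 FPKM and COL1A1 at 0.596 to 2.18 FPKM. Their part in the results was not tested. The 3 endothelial markers summed to 0.799 FPKM in the first and 11.5 FPKM in the recovered DMSO library, to 1.03 and 8.31 FPKM in the first and the recovered 2 h library, and to 0.441 FPKM after 6 h and 1.20 FPKM after 12 h, while VWF and CDH5 were below 1 FPKM in all of them. In such bulk RNA fewer cells of a type and less RNA per cell cannot be told apart.

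The recovered libraries stood apart from the first ones of their own groups. The DMSO libraries differed more than 2-fold in 1792 of 13287 genes (13.5%) and the 2 h libraries in 1453 (10.9%). Among the 10 genes, TNFSF10, TNFRSF12A and FAS differed more than 2-fold between libraries of the same group, in DMSO and again after 2 h. For 9 of the 10 genes both recovered libraries lay on the same side of both first libraries, with 5 genes above and 4 below. The same held for 70.0% of all genes. TNFRSF10D was the exception. For this reason each gene is given below in every library and set against each DMSO library.

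In DMSO the order of the mean levels, which FPKM puts on a scale relative to transcript length, ran from TNFRSF12A at 192 ± 126 FPKM (SD, n = 2) and TNFRSF1A at 83.7 ± 15.4 FPKM down to FAS at 2.41 ± 1.40 FPKM. FADD followed at 31.8 ± 11.3 FPKM, then CASP8 at 28.9 ± 2.36, TNFRSF10B at 21.7 ± 7.91, CFLAR at 19.6 ± 4.38, TNFRSF10D at 13.0 ± 2.29, TNFSF10 at 9.33 ± 7.56 and TNFRSF10A at 6.15 ± 1.39 FPKM. The ranges of neighbours overlapped from FADD to CFLAR and again from TNFRSF10D to TNFRSF10A, so that neighbours in these stretches did not differ beyond the spread of the DMSO libraries. Genes farther apart did in part, since both DMSO values of FADD and CASP8 lay above those of CFLAR, and both of TNFRSF10D above those of TNFRSF10A. TNFRSF12A, TNFRSF1A and FAS stood clear of their neighbours. The cells therefore held messenger RNA for each step of the pathway, from ligand to protease, before SpiD7 was added.

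**Figure D1:**
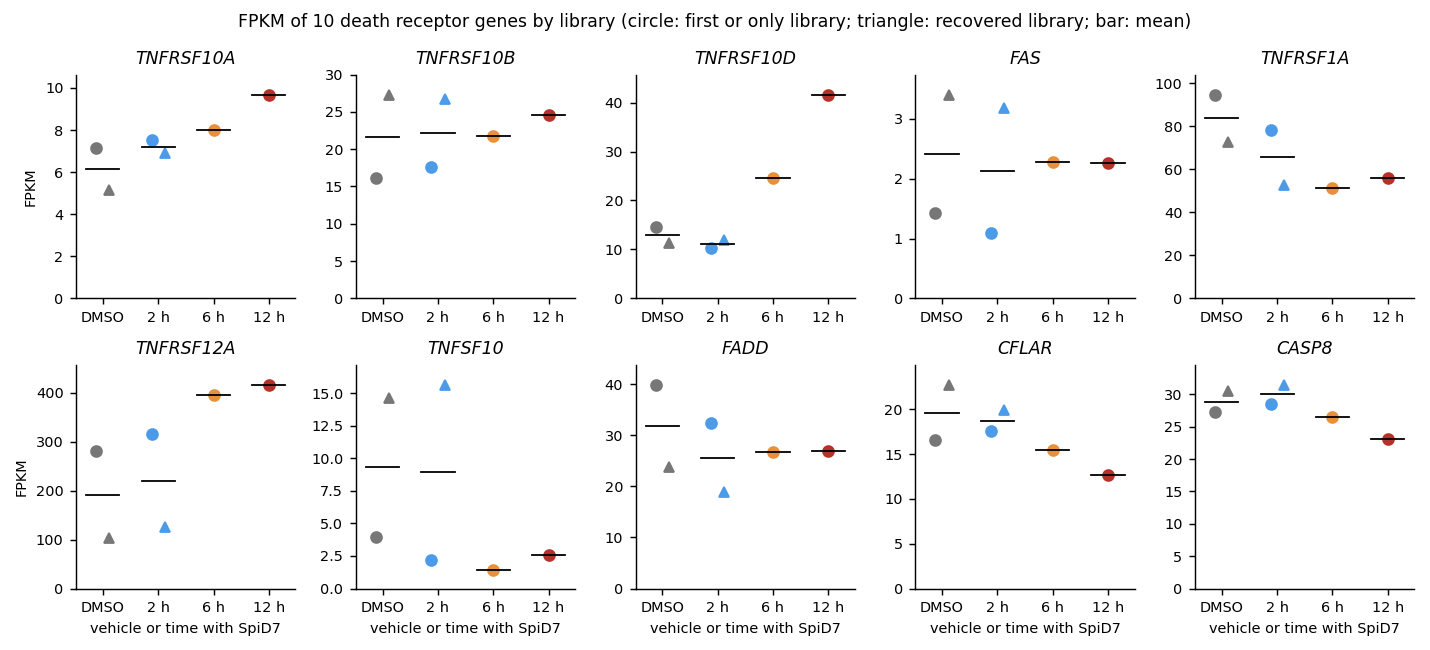
FPKM of the 10 genes (vertical axis, from 0) in DMSO and after 2 h, 6 h and 12 h of SpiD7 (horizontal axis). Circles are first or only libraries, triangles are recovered libraries and bars are group means. TNFRSF10D stands above all other libraries after 6 h and 12 h, whereas for TNFSF10, FAS, TNFRSF10B and TNFRSF12A the triangles lie apart from the circles in DMSO and after 2 h alike.

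At 12 h the decoy receptor gene TNFRSF10D was the member with the largest difference from the mean of both DMSO libraries, 3.21-fold higher. Against the recovered DMSO library alone, TNFSF10 and TNFRSF12A differed more, by -2.46 and 2.02 on the log2 scale beside 1.86 for TNFRSF10D. After 6 h TNFRSF10D was 1.90-fold higher than the mean of both. TNFRSF10A and TNFRSF12A also lay above both DMSO libraries after 6 h and 12 h. TNFRSF1A, TNFSF10, CFLAR and CASP8 lay below both, and TNFRSF10B, FAS and FADD lay between them. With limma, fitted across all genes on log2(FPKM + 0.1), 0 of the 10 genes had a Benjamini-Hochberg adjusted p under 0.05 after 2 h, 6 h or 12 h. Among all genes 0.0226%, 0.294% and 0.339% did. At an unadjusted p under 0.05 there were 0, 1 and 1 members, in each case TNFRSF10D, beside 2.84%, 5.55% and 9.19% of all genes. The fit takes the single libraries after 6 h and 12 h to vary as the DMSO and 2 h libraries do, and these times have no replicate check of their own.

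TNFRSF10D encodes a TRAIL receptor that binds the ligand but has a truncated death domain, for which it is called a decoy. Its level was 14.6 and 11.4 FPKM in the first and the recovered DMSO library, 10.2 and 11.9 FPKM after 2 h, 24.5 FPKM after 6 h and 41.6 FPKM after 12 h. The 2 h libraries overlapped the DMSO libraries, and both later libraries stood above all 4 of them. The difference from DMSO on the log2 scale was -0.23 after 2 h (SE 0.22), 0.92 after 6 h (SE 0.27) and 1.68 after 12 h (SE 0.27). Unadjusted p-values from limma were 0.371, 0.0329 and 0.00523, and adjusted p-values were 1.0, 0.811 and 0.401. At 12 h the level was 2.85 times that of the first and 3.66 times that of the recovered DMSO library, so that neither DMSO library decides the direction. Against the 2 h libraries it was higher by 1.91 on the log2 scale after 12 h (unadjusted p = 0.00347, adjusted p = 0.568, limma). A log2 difference at least as large as that after 12 h, in either direction, was seen in 3.64% of all genes. TNFRSF10D lies on chromosome 8 of GRCh38 (23135588 to 23164030, minus strand), and its row in the deposited table shares its locus with no other gene.

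TNFRSF10B encodes the death-domain TRAIL receptor also known as DR5. Its level was 16.1 and 27.3 FPKM in the first and the recovered DMSO library, 17.6 and 26.7 FPKM after 2 h, 21.8 FPKM after 6 h and 24.6 FPKM after 12 h. Every SpiD7 library lay between the DMSO libraries. The log2 differences were 0.05 after 2 h, 0.06 after 6 h and 0.23 after 12 h (SE 0.40, 0.49 and 0.49; adjusted p = 1.0, 0.997 and 0.920, limma). Without the first DMSO library they were -0.33, -0.32 and -0.15, and without the recovered one 0.43, 0.44 and 0.61, so that the direction depends on which DMSO library is used. Within same-numbered pairs after 2 h the ratio of SpiD7 to DMSO was 1.09 for the first libraries and 0.979 for the recovered ones. The gene lies on chromosome 8 (23020133 to 23069179, minus strand), and its deposited row covers a locus shared with RHOBTB2 and RP11-875O11.2. RHOBTB2, on the opposite strand, was at 1.51 to 2.71 FPKM in the 6 libraries. The level of RP11-875O11.2 was not examined.

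The transcript of CHOP, DDIT3, was at 13.9 and 46.3 FPKM in DMSO, 99.1 and 188 FPKM after 2 h, 203 FPKM after 6 h and 124 FPKM after 12 h. Every SpiD7 library was above both DMSO libraries. The log2 differences from mean DMSO were 2.42, 2.99 and 2.29 at the 3 times (adjusted p = 1.0, 0.836 and 0.598, limma). After 12 h the difference was 3.15 from the first and 1.42 from the recovered DMSO library. Of the other genes known to act on or with TNFRSF10B, ATF4 is the activator upstream of CHOP. It was at 153 and 202 FPKM in DMSO, 269.5 and 274.4 FPKM after 2 h, 343 FPKM after 6 h and 326 FPKM after 12 h. TRIB3, a target of ATF4 and CHOP, was at 12.9 and 11.1 FPKM in DMSO, 13.8 and 13.5 FPKM after 2 h, 55.5 FPKM after 6 h and 82.4 FPKM after 12 h, a log2 difference of 2.77 after 12 h (adjusted p = 0.108, limma). ERN1, which encodes the stress sensor IRE1, was at 1.91 and 3.91 FPKM in DMSO, 2.82 and 7.63 FPKM after 2 h, 5.30 FPKM after 6 h and 6.46 FPKM after 12 h. SP1, a general activator, was at 14.9 and 12.1 FPKM in DMSO, 12.91 and 10.85 FPKM after 2 h, 9.748 FPKM after 6 h and 7.80 FPKM after 12 h. None of these 5 regulators had an adjusted p under 0.05 at any time in limma. TNFRSF10B did not leave the DMSO range in the 6 h and 12 h libraries. In these, DDIT3 was 2.69 to 14.5 times its level in a DMSO library. The DMSO range of TNFRSF10B was wide, from 16.1 to 27.3 FPKM. Its level was 1.36 and 1.53 times the lower of these values after 6 h and 12 h, and 0.80 and 0.90 times the higher. With an SE of 0.49 on the log2 scale at both times, a lack of response cannot be shown. Whether CHOP acted on TNFRSF10B was not tested. Pearson's r with the log2 level of TNFRSF10B was taken over the 6 libraries, which share their vehicle group and differ in time. It was 0.52 for DDIT3, 0.40 for ATF4, 0.83 for ERN1, 0.18 for TRIB3 and -0.60 for SP1. For TNFRSF10B and ERN1 alike, the recovered libraries of DMSO and of 2 h exceeded both first ones. The part of this split in the correlations was not tested.

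TNFRSF10A encodes DR4, the other TRAIL receptor with a complete death domain. Its level was 7.13 and 5.17 FPKM in DMSO, 7.51 and 6.90 FPKM after 2 h, 7.98 FPKM after 6 h and 9.67 FPKM after 12 h. The later libraries were above both DMSO libraries, at 1.12 and 1.55 times their levels after 6 h and 1.36 and 1.87 times after 12 h. The log2 difference after 12 h was 0.66 (SE 0.29, unadjusted p = 0.0921, adjusted p = 0.617, limma), and 21.9% of all genes had one as large. TNFRSF10A lies on chromosome 8 (23190452 to 23225126, minus strand).

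The 4 TRAIL receptor genes of the cell membrane lie side by side on chromosome 8, and reads that match several of them could be miscounted. Of the distinct stretches of 50 bases, the read length, in the GENCODE transcripts of each gene, 0 were shared with another of the 4. Only exact matches among these genes were counted. Trimmed reads, reads with mismatches and matches to other genes were not examined, so that miscounting is not excluded. Within a library, ratios between them do not depend on the scaling of that library, and the ratios that follow were chosen after the values were seen. TNFRSF10D made up 35.4% and 23.9% of the summed FPKM of TNFRSF10A, TNFRSF10B, TNFRSF10C and TNFRSF10D in the first and the recovered DMSO library, 27.0% and 24.1% after 2 h, 43.2% after 6 h and 52.8% after 12 h. TNFRSF10B made up 39.0% and 57.4% in DMSO and 31.3% after 12 h. The share of TNFRSF10A stayed between 10.9% and 19.8% in all libraries. TNFRSF10C, the other decoy, was at 2.50 to 3.74 FPKM throughout. The level of TNFRSF10D was 0.907 and 0.416 times that of TNFRSF10B in DMSO, 0.581 and 0.444 times after 2 h, 1.12 times after 6 h and 1.69 times after 12 h, so that the truncated receptor's transcript exceeded that of TNFRSF10B after 6 h and 12 h only.

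**Figure D2:**
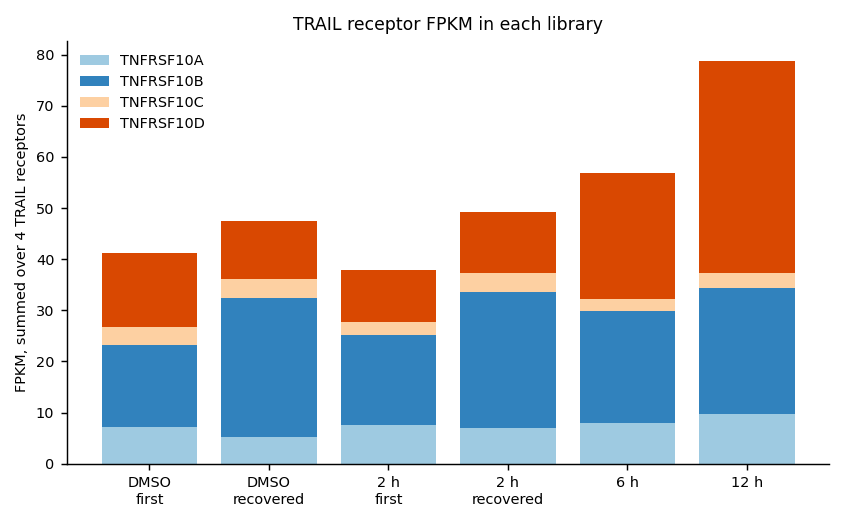
Stacked bars of the FPKM of the 4 TRAIL receptor genes (vertical axis, from 0) in each of the 6 libraries (horizontal axis), each colour a gene. The sum lies between 37.9 and 49.2 FPKM in DMSO and after 2 h and reaches 56.8 FPKM after 6 h and 78.8 FPKM after 12 h, with TNFRSF10D as the part that differs most.

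TNFRSF12A encodes Fn14, the receptor of the cytokine TWEAK, which has no death domain and signals through TRAF proteins. Its level was 281 and 103 FPKM in the first and the recovered DMSO library, 317 and 125 FPKM after 2 h, 395 FPKM after 6 h and 416 FPKM after 12 h. Both later libraries exceeded all others. The size of the difference depended on the vehicle library, since the 12 h level was 1.48 times the first and 4.05 times the recovered DMSO library. The 6 h level was 1.40 and 3.84 times these. The log2 difference from the mean of both was 1.22 after 6 h and 1.29 after 12 h (SE 0.94; adjusted p = 0.977 and 0.749, limma). At 2 h it was 0.23, with ratios of 1.13 and 1.22 in the first and recovered pairs. TNFRSF12A lies on chromosome 16 (3018445 to 3022383, plus strand), where it overlaps CLDN6 on the opposite strand, which did not exceed 0.545 FPKM.

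TNFRSF1A encodes the main receptor of tumour necrosis factor, which reaches FADD through the adaptor TRADD, and lies on chromosome 12 (6328757 to 6342114, minus strand). Its level was 94.6 and 72.7 FPKM in DMSO, 78.2 and 52.9 FPKM after 2 h, 51.3 FPKM after 6 h and 55.8 FPKM after 12 h. The 6 h and 12 h libraries lay below both DMSO libraries, and the 2 h libraries overlapped them. The 6 h level was 0.542 and the 12 h level 0.590 times that of the first DMSO library, and 0.705 and 0.767 times that of the recovered one. On the log2 scale the differences were -0.37 after 2 h, -0.69 after 6 h and -0.57 after 12 h (SE 0.30, 0.37 and 0.37; adjusted p = 1.0, 0.977 and 0.717, limma). In both same-numbered pairs the 2 h library was lower, at 0.827 and 0.727 times DMSO, as FAS and FADD also were, and 34.4% of all genes were likewise lower in both pairs. TNFRSF10A, TNFRSF12A and CASP8 were higher in both pairs, as were 31.5% of all genes.

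FAS encodes the receptor of FAS ligand and was the lowest of the 10 genes in DMSO. It lies on chromosome 10 (88990582 to 89015785, plus strand). It was at 1.42 and 3.40 FPKM in DMSO, 1.09 and 3.18 FPKM after 2 h, 2.27 FPKM after 6 h and 2.26 FPKM after 12 h. The later libraries lay between the DMSO libraries, with log2 differences of 0.04 and 0.03 (SE 0.90, adjusted p = 1.0 and 0.998, limma). The SE of TNFRSF10D at these times was 0.27, and its difference was not called either. At the larger SE of FAS the values cannot show that a difference was absent. The deposited row of FAS shares its locus with ACTA2 and FAS-AS1, and the reads do not record the strand. ACTA2, on the opposite strand, was at 0.226 and 2.94 FPKM in the first and the recovered DMSO library and at 0.458 and 0.911 FPKM after 2 h. Its part in the FAS values was not tested.

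**Figure D3:**
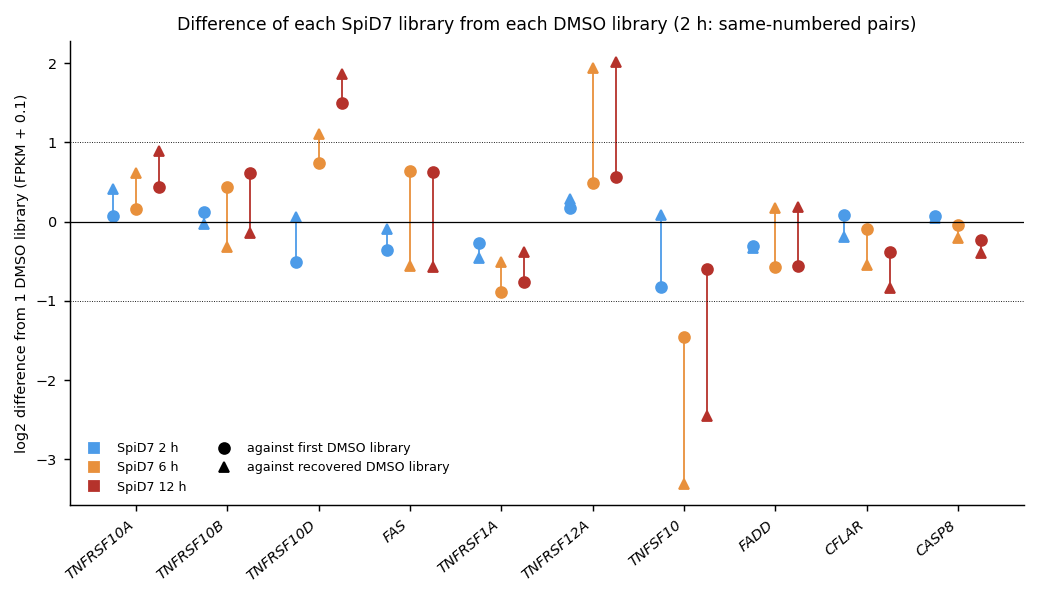
Log2 difference (vertical axis, FPKM + 0.1) of SpiD7 libraries from DMSO for each of the 10 genes (horizontal axis), against the first (circles) and the recovered DMSO library (triangles). At 2 h, same-numbered libraries are compared. Lines join the values of a time, dotted lines mark 2-fold. Lines that cross 0 after 6 h and 12 h belong to TNFRSF10B, FAS and FADD, and TNFRSF10D alone is beyond 2-fold against both DMSO libraries after 12 h.

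TNFSF10 encodes TRAIL, the ligand of the TRAIL receptors, and lies on chromosome 3 (172505508 to 172523507, minus strand). Its level was 3.98 FPKM in the first and 14.7 FPKM in the recovered DMSO library, 2.20 and 15.6 FPKM after 2 h, 1.39 FPKM after 6 h and 2.59 FPKM after 12 h. The later libraries lay below both DMSO libraries, and the recovered libraries of DMSO and of 2 h stood far above all others. The 6 h level was 0.349 times the first and 0.0947 times the recovered DMSO library, and the 12 h level was 0.652 and 0.177 times these. The log2 differences were -0.37, -2.38 and -1.53 after 2 h, 6 h and 12 h (SE 1.28, 1.56 and 1.56; adjusted p = 1.0, 0.977 and 0.821, limma). Without the recovered DMSO library the 12 h difference was -0.60, so that the gene was no longer more than 2-fold lower at that time. The 6 h difference was then -1.45. PECAM1 and the summed endothelial markers were also high in the recovered libraries (11.5 and 8.31 FPKM), as were LTB and BIRC3 below. Their part in the TNFSF10 values was not tested.

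The bases before the start of TNFSF10 and TNFRSF1A are shown because these receptor and ligand genes, each with a single RefSeq start, were the members farthest below both DMSO libraries after 6 h. They are given 5′ to 3′ on the gene's strand, ending at the last base before the GENCODE gene. Lower case marks that no searched motif lay in them.
TNFSF10: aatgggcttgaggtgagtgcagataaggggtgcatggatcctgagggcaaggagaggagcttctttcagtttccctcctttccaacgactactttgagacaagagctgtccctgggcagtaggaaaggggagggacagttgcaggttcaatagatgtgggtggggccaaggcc
TNFRSF1A: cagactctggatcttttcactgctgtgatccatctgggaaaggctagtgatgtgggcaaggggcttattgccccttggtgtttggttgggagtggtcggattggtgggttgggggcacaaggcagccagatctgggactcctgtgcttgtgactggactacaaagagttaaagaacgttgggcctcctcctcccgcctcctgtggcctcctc
The TNFSF10 stretch is chr3:172523508-172523680 and the TNFRSF1A stretch chr12:6342115-6342326, both on the minus strand of GRCh38. RefSeq windows (GRCh38.p14) were at hand for 6 of the 10 genes, 13 windows in all, and not for TNFRSF10A, TNFRSF10B, TNFRSF10D and TNFRSF12A. The 250 bases before each RefSeq start were searched on both strands for 6 motifs. These were the AP-1 site TGANTCA, an NF-κB site GGANTTNCC, the C/EBP-ATF element TGATGNAA, a heat shock unit GAANNTTC, the TATA box TATAAA and the GC box GGGCGG. In that order they occurred in 6.57%, 3.67%, 3.14%, 5.78%, 10.7% and 42.6% of 35116 such windows of all genes. The TNFRSF1A window held none of them, and the TNFSF10 window held a TATA match from -31 to -26, in the bases left out above. AP-1 letters lay in 1 window each of FAS (-242 to -236), CFLAR (-160 to -154) and CASP8 (-61 to -55), and heat shock letters in 1 window each of CFLAR and CASP8. NF-κB letters lay in 1 window of CFLAR (-96 to -88), and the C/EBP-ATF letters in 0 of the 13 windows. A second TATA match lay in 1 window of CASP8 (-139 to -134). GC boxes lay in the FADD window, in all 3 FAS windows, which overlap in part, in 2 of the 4 CFLAR windows, where 1 shares a base with the NF-κB match, and in 1 of the 3 CASP8 windows. These are matches of letters and were not tested for binding.

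FADD, the adaptor, was at 39.9 and 23.8 FPKM in the first and the recovered DMSO library, 32.3 and 18.9 FPKM after 2 h, 26.8 FPKM after 6 h and 27.0 FPKM after 12 h. The 6 h and 12 h libraries lay between the DMSO libraries, with log2 differences of -0.20 and -0.19 (SE 0.53; adjusted p = 0.984 and 0.943, limma). At 2 h FADD was lower in both pairs, at 0.811 and 0.795 times DMSO, by a log2 difference of -0.32 (adjusted p = 1.0, limma). In DMSO and after 2 h alike, its level was higher in the first library than in the recovered one. FADD lies on chromosome 11 (70203163 to 70207390, plus strand).

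CASP8, the protease, varied least among the 10 genes. It was at 27.2 and 30.5 FPKM in DMSO, 28.5 and 31.4 FPKM after 2 h, 26.5 FPKM after 6 h and 23.1 FPKM after 12 h. The later libraries were below both DMSO libraries, at 0.974 and 0.867 times their level after 6 h and at 0.851 and 0.758 times after 12 h. The log2 difference after 12 h was -0.32 (SE 0.21, adjusted p = 0.727, limma), and 52.0% of all genes had one as large.

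CFLAR, the inhibitor, was at 16.5 and 22.7 FPKM in DMSO, 17.5 and 19.9 FPKM after 2 h, 15.5 FPKM after 6 h and 12.6 FPKM after 12 h. At 12 h it was below all 5 other libraries, at 0.765 and 0.556 times the DMSO libraries. The log2 differences were -0.05, -0.32 and -0.61 at the 3 times (SE 0.24, 0.29 and 0.29; adjusted p = 1.0, 0.977 and 0.640, limma). CFLAR and CASP8 are neighbours on chromosome 2 (201116104 to 201176687 and 201233443 to 201287711 of GRCh38, plus strand). The ratio of CASP8 to CFLAR, chosen after the values were seen, was 1.65 and 1.35 in DMSO, 1.63 and 1.58 after 2 h, 1.71 after 6 h and 1.83 after 12 h. The 6 h and 12 h ratios were above those of both DMSO libraries. The deposited row of CFLAR shares its locus with CFLAR-AS1 and LOC102724614, and the level of the latter was not examined. The antisense gene CFLAR-AS1, whose reads cannot be told from those of CFLAR without strand, was at 0.249 and 0.463 FPKM in DMSO, 2.54 FPKM after 6 h and 1.66 FPKM after 12 h, opposite in direction to CFLAR.

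As a list, the 10 genes were divided. At 12 h 5 were higher and 5 lower than mean DMSO, with a median log2 difference of -0.08, beside -0.05 over all genes. At 2 h and 6 h the medians were -0.14 and -0.04, beside -0.01 and 0.03 over all genes. Differences of more than 2-fold upward were seen for 0 genes after 2 h (2.32% of all genes), TNFRSF12A after 6 h (5.66%), and TNFRSF10D and TNFRSF12A after 12 h (6.48%). Downward differences of that size were seen for 0 genes after 2 h (0.662%) and TNFSF10 after 6 h (3.1%) and 12 h (3.76%). At 6 h and again after 12 h, 3 of the 10 genes were above both DMSO libraries and 4 below. Of all genes 31.6% were above and 29.2% below after 6 h, and 30.1% and 35.6% after 12 h, so that these counts are near the background. At 2 h, 0 of the 10 genes had both libraries outside the DMSO range, compared with 13.7% of all genes above it and 8.1% below it. By role, 5 of the 6 receptor genes were higher than mean DMSO after 12 h, with a median of 0.45, TNFRSF1A being the one that was lower. Of these 5, TNFRSF10B and FAS were higher only against the first DMSO library. Of all 13287 genes 6009 were higher after 12 h. Among 7 other receptor genes of the pathway with a mean of at least 1 FPKM, 3 were higher, with a median of -0.25. The ligand, the adaptor, the protease and the inhibitor were all lower after 6 h and 12 h, although FADD was so only against the first DMSO library. Of all genes 6215 were lower after 6 h and 7278 after 12 h.

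**Figure D4:**
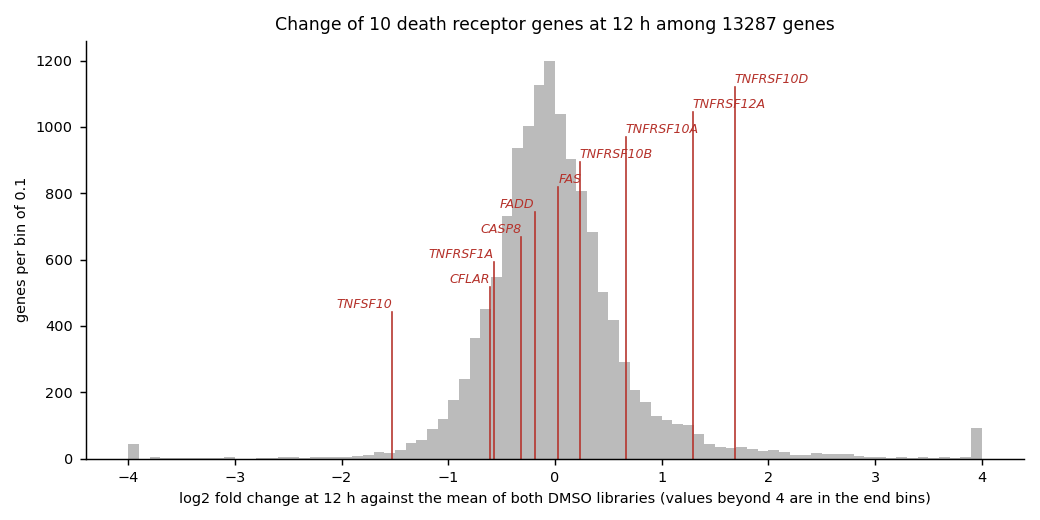
Histogram of the log2 difference after 12 h from the mean of both DMSO libraries (horizontal axis) over 13287 genes (vertical axis, genes per bin of 0.1), with a red line for each of the 10 genes. The height of a line carries no value. TNFRSF10D (1.68), TNFRSF12A (1.29) and TNFSF10 (-1.53) lie in the tails, and the other 7 genes between -0.61 and 0.66.

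Other genes of the extrinsic pathway were taken from a list of 58, of which 50 had a mean of at least 1 FPKM. In limma 0 of the 50 had an adjusted p under 0.05 at any time, and 2, 2 and 6 had an unadjusted p under 0.05 after 2 h, 6 h and 12 h. Of all genes 2.84%, 5.55% and 9.19% had one, so that these counts are near the background. Those after 2 h and again after 6 h were DEDD2 and SPATA2. At 12 h they were DEDD2, SPATA2, DEDD, BIRC2, TAB1 and TAX1BP1. The medians were 0.01, -0.03 and -0.05. More than 2-fold higher were 1, 3 and 4 genes (2.32%, 5.66% and 6.48% of all genes), and more than 2-fold lower 0, 3 and 2 (0.662%, 3.1% and 3.76%). At 12 h 18 were above and 19 below both DMSO libraries, beside 30.1% and 35.6% of all genes.

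DEDD2 and SPATA2, named above at each time, encode a death effector domain protein and a regulator of the TNF receptor complex. The 3 comparisons share both DMSO libraries and the estimate of spread, so that they do not repeat one another. The share of all genes with an unadjusted p under 0.05 at all 3 times was not taken. DEDD2, which shares its domain with FADD and CASP8, was at 20.7 and 23.1 FPKM in DMSO, 52.9 and 81.8 FPKM after 2 h, 89.1 FPKM after 6 h and 98.1 FPKM after 12 h. All SpiD7 libraries were above both DMSO libraries. The log2 differences from mean DMSO were 1.59, 2.02 and 2.16 (adjusted p = 1.0, 0.517 and 0.405, limma). SPATA2, which brings the deubiquitinase CYLD to the TNF receptor complex, was at 5.19 and 5.64 FPKM in DMSO, 9.85 and 9.43 FPKM after 2 h, 13.3 FPKM after 6 h and 12.6 FPKM after 12 h (adjusted p = 1.0, 0.450 and 0.405, limma). CYLD itself was at 2.25 and 4.32 FPKM in DMSO, 3.55 and 7.81 FPKM after 2 h, 6.75 FPKM after 6 h and 5.94 FPKM after 12 h. DEDD, the relative of DEDD2, was at 8.24 and 9.65 FPKM in DMSO and at 19.1 FPKM after 12 h. NGFR, a receptor with a death domain, was at 1.03 and 2.35 FPKM in DMSO and at 6.05 FPKM after 12 h. In contrast, LTB, the ligand lymphotoxin beta, and BIRC3, an inhibitor of apoptosis induced by NF-κB, followed the library number. LTB was at 0.322 FPKM in the first and 59.9 FPKM in the recovered DMSO library, 0.295 and 53.0 FPKM after 2 h, 0.180 FPKM after 6 h and 0.211 FPKM after 12 h. BIRC3 was at 0.837 and 27.3 FPKM in DMSO, 1.05 and 15.4 FPKM after 2 h, 1.26 FPKM after 6 h and 0.697 FPKM after 12 h, higher after 6 h than the first DMSO library and lower than the recovered one.

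**Figure D5:**
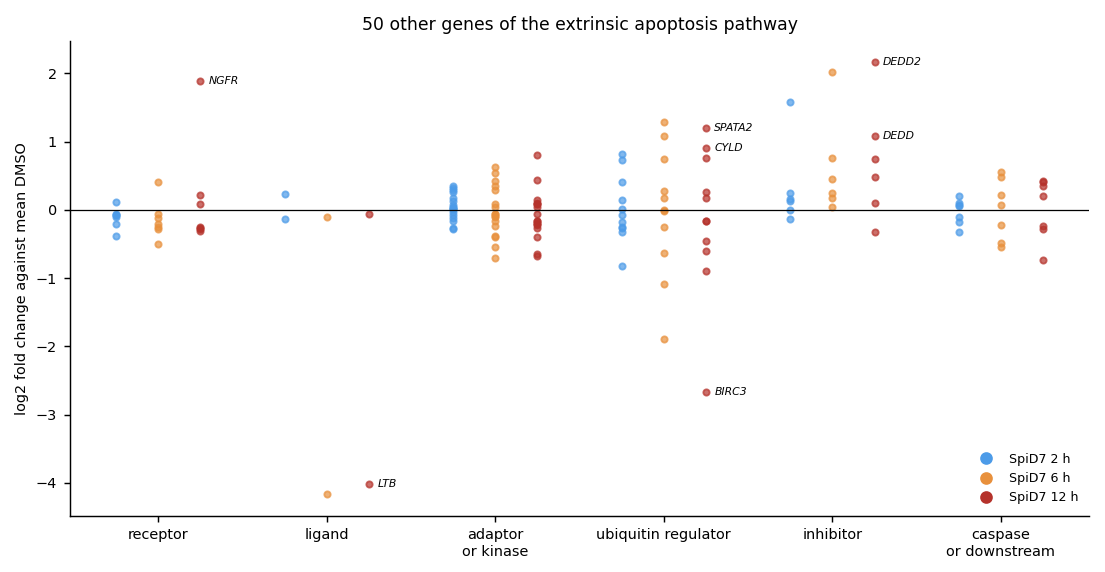
Log2 difference from the mean of both DMSO libraries (vertical axis) after 2 h, 6 h and 12 h (colours) for 50 other genes of the extrinsic pathway. Genes are grouped by the role that the list gave them (horizontal axis). DEDD and DEDD2 stand in the inhibitor column by that list alone, and whether they inhibit apoptosis was not tested. Each point is a gene, and genes described in the text for being more than 2-fold and outside both DMSO libraries are named after 12 h. Most points lie within 1 unit of 0, with DEDD2 highest and LTB lowest after 12 h.

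Over the 6 libraries, the genes whose log2 level was most like that of TNFRSF10B were CYSTM1 (Pearson's r = 0.999), COL1A1 (0.998), NDRG1 (0.997), PERP (0.997) and RHOV (0.996). Each had its higher DMSO level in the recovered library and lay between these after 6 h and 12 h, as TNFRSF10B did. For TNFRSF10D they were ZNF444 (r = 0.998), ZCCHC17 (0.994), CHST1 (0.991), TSPAN17 (0.991) and RHOBTB1 (0.991), whose levels were highest after 12 h. These genes were chosen as the highest of 13287. The regulators above were not chosen in this way. The correlation of TNFRSF10D was 0.96 with TRIB3, 0.53 with ATF4, 0.42 with ERN1, 0.29 with DDIT3 and -0.82 with SP1. With the other members it ran from -0.91 for CASP8 to 0.77 for TNFRSF10A. All these values are descriptions over 6 libraries.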

How the data were processed

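The 6 RNA libraries came from OVCAR5 cells (DMSO 2, SpiD7 2 h 2, 6 h 1, 12 h 1). By the methods of the study, the authors trimmed single reads of 50 bases with Trim Galore, aligned them with TopHat 2.0.8, estimated expression with Cufflinks 2.1.1 and compared samples with Cuffdiff 2.1.1. The library kit does not mark strand, and the methods name a mouse build although the deposited loci are human. For 4 comparisons, each scaled alone, the authors deposited FPKM values with log2 fold changes, p-values and q-values, which were not used. The columns named for the second DMSO and second 2 h library were read as group values, so that no column held either second library alone.

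The 10 genes and all lists were chosen with earlier results of these data known. Comparisons were brought to the scale of the first through the shared first DMSO library (factors 0.972 and 0.994). The second columns were read as group means, in which 811 DMSO rows and 963 2 h rows lay at a constant lower limit of 0.526 and 0.509 times the first library. The recovered library is the column minus that share, divided by it, which assumes equal weights. A remainder under 0.2% was set to 0. The design had foreseen this recovery, and the study does not describe the columns.

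Rows of a symbol were summed. Genes with a mean of at least 1 FPKM were fitted as log2(FPKM + 0.1) in 4 groups with limma 3.58.1 in R 4.3.3. Tests were two-sided, with Benjamini-Hochberg adjustment over 13287 genes. The fit was also run on simulated data in which all genes had the same spread. The spreads here were unequal, so that this run does not measure how the fit performs on these data. A fold on this scale understates the change of low genes, and a ratio to 1 library is of its FPKM. Folds against mean DMSO use mean log2 values. Python 3.11.15, pandas 2.3.3, numpy 2.4.6 and matplotlib 3.10.9 served for tables and plots. Positions are from GENCODE on GRCh38. Some genes of the pathway and regulator lists are not reported here, and the list counts leave them out. All 10 genes are described. Other pathway genes were named where they were called, or more than 2-fold from mean DMSO and outside both DMSO libraries, and BIRC2, TAB1 and TAX1BP1 were named after their values were seen. Alternatives were other pseudocounts, filters, scalings, row choices, an intensity trend, a replicate block, a fit of DMSO and 2 h alone, and leaving out libraries. Leaving out both recovered libraries was added after the data were seen.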

Additional observations from a re-analysis of the deposited data

How the results depend on the processing

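Over 360 log2 differences of the 10 genes under alternatives, 0 had an adjusted p under 0.05 in limma (lowest 0.157), and 24 changed direction, 20 of them by leaving out a library. Leaving out libraries gave, at 2 h, 6 h and 12 h, ranges of -0.33 to 0.43, -0.32 to 0.44 and -0.15 to 0.61 for TNFRSF10B, -0.96 to 0.51, -0.56 to 0.64 and -0.57 to 0.63 for FAS, and -0.70 to 0.069, -0.57 to 0.17 and -0.56 to 0.18 for FADD. At 2 h alone the sign also differed for TNFSF10 (-1.75 to 1.02), TNFRSF12A (-0.50 to 0.95), CFLAR (-0.28 to 0.18), CASP8 (-0.028 to 0.14), LTB (-3.71 to 3.44), BIRC3 (-2.70 to 2.17), and NGFR (-0.56 to 0.78), and at 6 h for NGFR (-0.15 to 0.96) and BIRC3 (-4.33 to 0.54). The median of the 10 genes ranged from -0.11 to 0.083 at 2 h, from -0.26 to 0.06 at 6 h and from -0.27 to 0.10 at 12 h.

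FAS was at -0.0017 at 12 h with a pseudocount of 1 and at -0.0097 at 6 h after median-ratio scaling, and TNFRSF10B was at -0.016 at 2 h in the group columns as deposited. Without both recovered libraries, CFLAR was at 0.085, BIRC3 at 0.30 and NGFR at -0.0020 at 2 h, and BIRC3 at 0.54 at 6 h. The number of the 10 genes more than 2-fold higher was then 0 at 6 h and 1 at 12 h, and 0 were more than 2-fold lower at 12 h. Leaving out single libraries gave 0 to 1 genes higher and 0 to 1 lower at 2 h, 0 to 2 higher at 6 h, and 1 to 2 higher and 0 to 1 lower at 12 h. TRIB3 at 12 h had a log2 difference of 2.77 and an adjusted p of 0.0467 without a filter on low values (limma).

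Genes called at 2 h, 6 h and 12 h numbered 3, 39 and 45. Without a filter they were 0, 96 and 263, and without single libraries 0 to 21, 22 to 47 and 26 to 51. At 2 h a pseudocount of 1 gave 1, one of 0.01 gave 6 and an intensity trend 1. With the replicate block at 2 h, 0 genes were called. Unadjusted p-values in that fit were 0.0365 for TNFRSF1A and 0.0251 for FADD (adjusted p = 0.347 and 0.333, limma). Same numbers are not shown to mark a shared culture, and their deviations from the group means had a correlation of 0.369 across genes. The causes of these changes were not tested. The methods of the study give an approximate range of reads per sample, and the depth of each library is known only relative to the first. With 1 library at 6 h and at 12 h no spread at those times could be measured.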
